A study of Caenorhabditis elegans with 2 samples.

Results

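The regions described here are the weaker part of a genome-wide list of places where tagged PES-1 was recovered from chromatin of early Caenorhabditis elegans embryos. They were chosen by signal. All nuclear peaks of a list ranked over both replicates were ordered by their deposited signal, the strongest 1500 were passed over, and the next 3500, down to rank 5000, were taken. Summits within 200 bp of a summit in the conservative list were then removed. Of the 3500 peaks, 202 were removed and 3298 remained, called the members, and the other 71576 nuclear peaks of the list were not members. The conservative list holds the 1452 nuclear peaks that passed a threshold on the irreproducible discovery rate (IDR), which estimates how many of the called peaks would fail to appear again in a repeat. The assay was chromatin immunoprecipitation with sequencing (ChIP-seq). The strain, RW12239, carries the allele st12239[pes-1::TY1::EGFP::3xFLAG] on chromosome IV, a fusion made by CRISPR at the gene's own locus. Embryos of 1 hour were obtained by bleaching eggs and used as whole organisms, so that chromatin of all their cells was mixed. The descriptions name an antibody against GFP, while the antibody field names pes-1. There is 1 group with 2 biological replicates, both set against the same control file, and no second condition. Coordinates are those of ce11.

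PES-1 is a forkhead transcription factor, a family whose members bind DNA through a winged helix domain and recognise sites with the core GTAAACA. The gene is active in subsets of cells of the early embryo and is known to overlap in function with fkh-2, another forkhead gene. In ChIP-seq, peaks far down a ranked list mix weakly or rarely occupied sites with background. In C. elegans the arms of the autosomes are richer in repeats than their centres, which hold more of the conserved genes.

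The sequence of 6 members, 50 bp to either side of the summit, is printed here because each is the highest-ranked member of a kind that the results turn on, with UTRs avoided. The sequences are from the RefSeq copy of WBcel235 (the same assembly as ce11), all from the plus strand. The promoter window is chrIII:3855038-3855138, inside brc-1, the BRCA1 orthologue of DNA repair, and upstream of that gene's shortest transcript. The exon window is chrIII:12182435-12182535 in Y75B8A.10, the intron window chrII:4581323-4581423 in vab-1, an Eph receptor gene, and the intergenic window chrIV:8008208-8008308, with rig-4, an immunoglobulin superfamily gene, as its nearest gene. The snoRNA window, chrIV:4347881-4347981, lies beside the snoRNA gene W03B1.17. The window named for the word is chrIV:11205921-11206021, and its capitals mark CGCGCC on both strands, which overlap there. The promoter, exon, intron, intergenic and snoRNA windows have no capitals, since no single motif is shown in them. All but the intron and intergenic windows have a G+C content above 50%.
promoter, brc-1: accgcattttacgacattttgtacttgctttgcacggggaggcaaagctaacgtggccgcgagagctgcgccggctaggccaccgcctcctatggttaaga
exon, Y75B8A.10: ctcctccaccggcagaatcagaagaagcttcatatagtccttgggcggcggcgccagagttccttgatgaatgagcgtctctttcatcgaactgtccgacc
intron, vab-1: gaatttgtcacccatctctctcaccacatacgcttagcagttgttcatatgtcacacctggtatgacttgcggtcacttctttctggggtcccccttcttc
intergenic, near rig-4: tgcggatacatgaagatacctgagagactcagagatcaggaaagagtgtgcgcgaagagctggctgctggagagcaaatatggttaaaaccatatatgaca
snoRNA, W03B1.17: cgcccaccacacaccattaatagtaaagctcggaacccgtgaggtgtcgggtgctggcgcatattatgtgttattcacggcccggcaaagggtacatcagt
word, near R07H5.9: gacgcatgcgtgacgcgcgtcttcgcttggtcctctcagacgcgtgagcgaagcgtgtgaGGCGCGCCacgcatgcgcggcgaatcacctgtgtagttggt

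Since the signal chose the members, their signal is a description. It ran from 72.7 to 106, with a median of 81.3, against 146 at the median conservative peak. The edges of the range were close: rank 1500, just outside, had a signal of 105.88 and the first member 105.857, while the last member, at rank 5000, had 72.6804 and rank 5001 had 72.6797. The deposited q-value was 0.0935 at the smallest, 0.310 at the median and 0.397 at the largest member. The median conservative peak had a q-value of 0.0224. The global IDR had a median of 0.0973 over the members. It was at or below 0.01 for 2 members, at or below 0.05 for 1000 (30.3%) and above 0.5 for 432 (13.1%). Nearly all members, 3287 (99.7%), were exactly 330 bp wide, and in each of those the deposited summit was the centre of the peak. Among conservative peaks 61.0% had that width. Distances and windows below are therefore measured from a peak's centre more than from an observed maximum. Read depth is not analysed here, and the intervals below are 95% Wilson intervals that cover the counting of peaks only. No test was built over regions, and the groups are set side by side.

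Most members were found in both replicates, but at signals that differed. A summit within 200 bp was present in the own ranked list of replicate 1 for 3198 members (96.97%) and of replicate 2 for 3265 (99.0%). Both lists held 3165 members (95.97%, 95.2 to 96.6%), against 96.9% of conservative peaks and 63.9% of all ranked peaks. In the next ranks, 5001 to 8500, taken in the same way, the share was 94.2% (93.4 to 94.9%). The combined list was made from the replicates, and so this share is a description. Signals in replicate 1 ran from 3.39 to 248 with a median of 34.3. Signals in replicate 2 ran from 2.21 to 101.2 with a median of 46.6. Replicate 2 was higher at 2361 of the 3165 members (74.6%), and the median member was 0.44 higher there on the log2 scale (SD 0.80 across members).

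**Figure D1:**
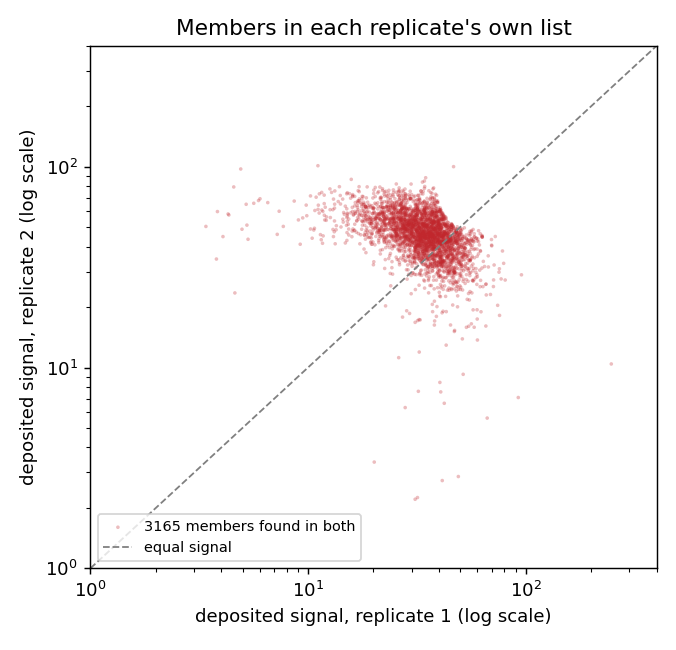
Deposited signal of each member in the ranked list of replicate 1 (x axis) and of replicate 2 (y axis), both on log scales without units, for the 3165 members with a summit within 200 bp in both lists. The points form a band that runs down to the right across the line of equal signal, and 2361 of them lie above that line.

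The replicates differed by more than 2-fold at 773 members (24.4%), compared with 65 conservative peaks (4.62%) and 24.0% of ranks 5001 to 8500. Across members the 2 signals had a Spearman's rho of -0.52, while across 1407 conservative peaks it was 0.76. Ranks 5001 to 8500 gave -0.51, and so the members were not set apart from them here. Both ranges of ranks are narrow in the combined signal and the conservative list is not, and so these values are a description. Only 340 members (10.3%) lay in the same range of ranks in both replicates' own lists. In replicate 1 the members reached from rank 188 to rank 78779, and in replicate 2 from rank 691 to rank 74738. Of the members, 282 (8.55%) lay within 200 bp of a summit in the optimal list, a larger thresholded list that the authors derived from both replicates.

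The members lay most often in introns and rarely in exons. Of the 3298 summits, 1268 (38.4%, 36.8 to 40.1%) were in introns of protein-coding genes, and introns made up 27.1% of nuclear bases, a ratio of 1.42. Promoter windows, which began 1000 bp upstream of a transcript's 5′ end and ended 200 bp into it, held 990 summits (30.02%, 28.5 to 31.6%) and 26.2% of bases, a ratio of 1.14. Exons held 276 summits (8.37%, 7.47 to 9.36%) and 21.7% of bases, a ratio of 0.386. The remaining 764 summits (23.2%, 21.8 to 24.6%) were intergenic, and so were 25.04% of bases.

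**Figure D2:**
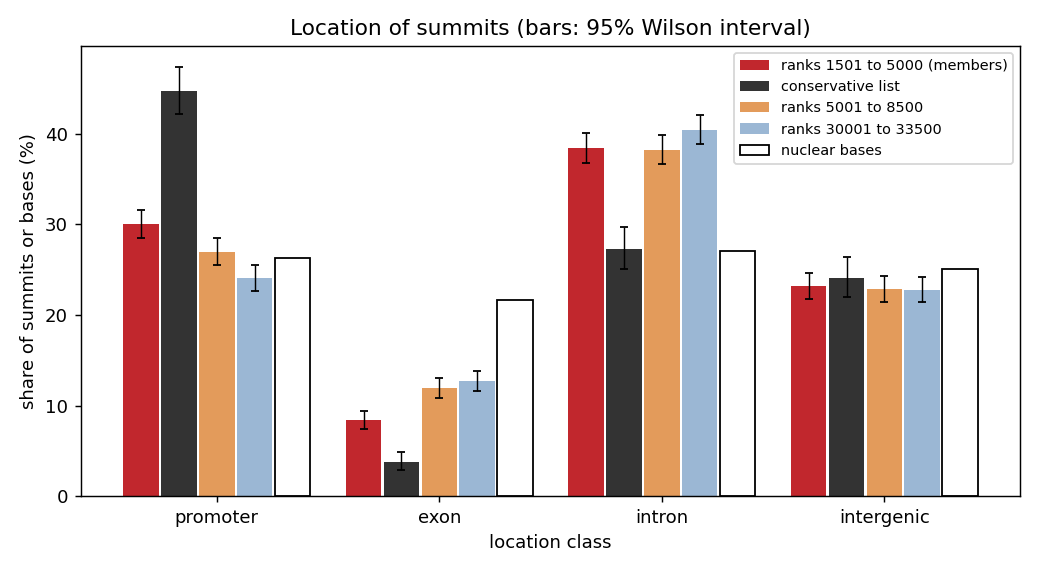
Share of summits (y axis, percent) in each location class (x axis) for the members, the conservative list and both weaker ranges of ranks, with 95% Wilson intervals, beside the share of nuclear bases (open bars). The members' promoter share of 30.02% lies below the conservative 44.8%, and their intron share of 38.4% lies above the conservative 27.3%.

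The members' promoter and exon shares stood between those of the conservative list and still weaker peaks, and their intron share was level with that of the next ranks. Promoter windows held 30.02% of members, 44.8% of conservative peaks, 26.98% of ranks 5001 to 8500 and 24.0% of ranks 30001 to 33500. These last ranges of peaks had conservative summits removed in the same way. Introns held 38.4% of members, 27.3% of conservative peaks, 38.3% of ranks 5001 to 8500 and 40.5% of ranks 30001 to 33500. The exon share was 8.37% in members, 3.79% in conservative peaks, 11.9% in ranks 5001 to 8500 and 12.7% in ranks 30001 to 33500. Within the members, promoter windows held 34.1% (30.9 to 37.4%) of the 824 strongest and 28.03% (25.1 to 31.2%) of the 824 weakest. The intervals of the intergenic share overlapped among the members, the conservative list and both weaker ranges.

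Close to 5′ ends of genes the excess was on the upstream side. The median distance to the nearest protein-coding 5′ end was 1344 bp for members, 850.5 bp for conservative peaks and 1304 bp for tiles of the same window size laid over the genome. The 250 bp just upstream held 332 members (10.1%, 9.09 to 11.1%), 20.8% of conservative peaks and 6.06% of tiles. The 250 bp just downstream held 173 members (5.25%, 4.54 to 6.06%), 4.89% of conservative peaks and 6.27% of tiles. Within transcripts, coding sequence held 306 member summits (9.28%) and 24.6% of bases. The 5′ UTRs held 73 (2.21%, 1.76 to 2.77%) and 1.77% of bases, and the 3′ UTRs held 84 (2.55%, 2.06 to 3.14%) and 3.61% of bases. Parts of transcripts can overlap among isoforms, and so these shares are not exclusive of promoter windows.

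Along the chromosomes the members were concentrated in the outer parts. The central stretch of each autosome, 33.3% of its length, held 414 of 2913 autosomal members (14.2%, 12.99 to 15.5%). The same stretch held 25.2% (22.8 to 27.7%) of autosomal conservative peaks. On the X chromosome it held 67 of 385 members (17.4%, 13.9 to 21.5%) and 23.3% of conservative peaks. The shares in the centres of single autosomes ran from 10.5% on chromosome V to 15.6% on chromosome IV. Weaker ranges of the list showed the same shape, with 11.9% of ranks 5001 to 8500 and 11.8% of ranks 30001 to 33500 in autosome centres. Members in centres lay in promoter windows more often (41.6%) than members in the outer parts (28.04%), where genome tiles gave 29.2% and 24.8%.

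**Figure D3:**
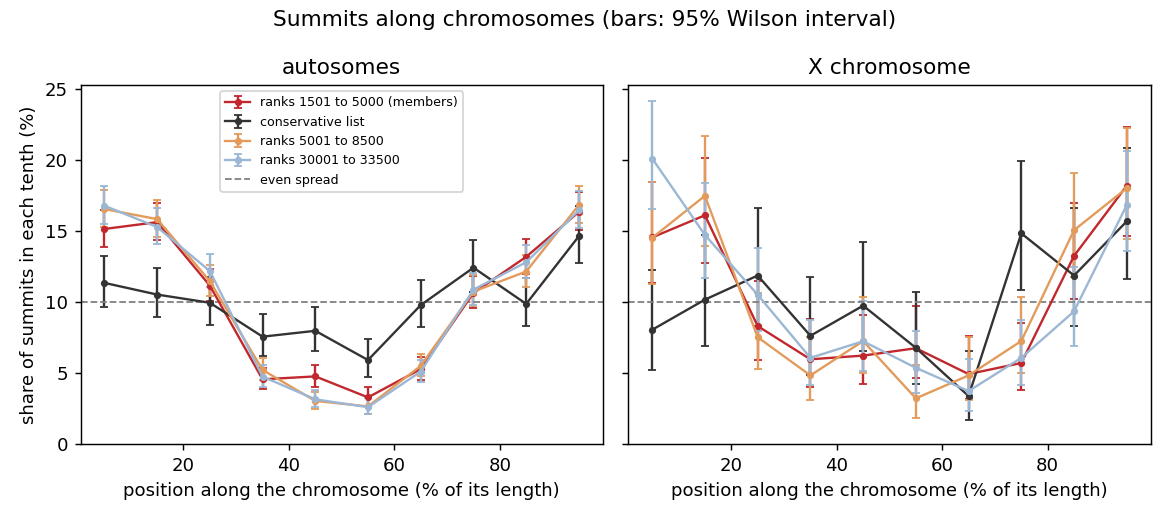
Share of summits (y axis, percent) in each step of 10% of chromosome length (x axis, percent of length) for autosomes and X, with 95% Wilson intervals and a dashed line at an even spread. On autosomes the members fall to 3.30% just past the centre and reach 16.3% at the right-hand end, and the conservative list has a shallower dip.

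The chromosomes differed in density. Chromosome III had 681 members (1.502 times its share of bases, 1.404 to 1.61) and chromosome I had 703 (1.42 times, 1.33 to 1.51). Chromosome II had 543 (1.08 times) and chromosome IV had 538 (0.935 times). Chromosome V had 448 (0.651 times, 0.597 to 0.709) and X had 385 (0.661 times, 0.601 to 0.725). The other lists were uneven as well. Ranks 5001 to 8500 gave 1.53 times for chromosome III, 1.36 for I, 0.734 for V and 0.603 for X. In ranks 30001 to 33500 these ratios were 1.33, 1.42, 0.744 and 0.692. In the conservative list they were 1.44, 1.21, 0.663 and 0.920. The median member was 17850.5 bp from the nearest conservative summit, and the median genome tile 31500 bp. Within 1000 bp of a conservative summit, beyond the removed 200 bp, there were 139 members (4.21%), against 2.65% of tiles.

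Sequence at the members was mostly single-copy, though often in lower case in the RefSeq copy, the mark of repeats and low-complexity sequence. The central 31 bp occurred more than once in the nuclear genome for 334 members (10.1%, 9.14 to 11.2%), 364 conservative peaks (25.1%, 22.9 to 27.4%) and 8.71% of tiles. At least 10 copies were found for 144 members (4.37%), 14.05% of conservative peaks and 2.67% of tiles. Lower-case bases filled 50% or more of the window at 1313 members (39.8%, 38.2 to 41.5%), 19.01% of conservative peaks and 30.4% of tiles. Weaker ranges had still more such windows, 41.9% in ranks 5001 to 8500 and 49.2% in ranks 30001 to 33500. In outer parts of chromosomes the share was 43.4% (41.6 to 45.3%) of members and 35.8% of tiles, and in centres 18.7% (15.5 to 22.4%) of members and 19.6% of tiles. By class it was 50.7% of intron members, 43.6% of intergenic members, 31.2% of promoter members and 10.1% of exon members. The treatment of reads that map to several places is not stated, and its part in these values was not tested.

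Small RNA genes had few members beside their share of the conservative list. Over tRNA, snoRNA, snRNA, microRNA and rRNA genes, 82 of 1368 (5.99%) had a member within 200 bp. Summits near tRNA genes, which carry amino acids to the ribosome and are read by RNA polymerase III, numbered 36 (1.09%, 0.790 to 1.51%), 4.01 times the share of bases. In the conservative list 18.5% of summits lay there, 67.8 times the share of bases. For snoRNA genes, guides of ribosomal RNA modification, there were 17 member summits (0.515%, 0.322 to 0.824%), and 4.48% of conservative summits. Near snRNA genes there were 6 member summits, near microRNA genes 15 (3.86 times the share of bases, 2.34 to 6.37) and near rRNA genes 0, which allows a share of up to 0.116%. Pseudogenes (0.468 times) and piRNA genes (0.274 times) had fewer member summits than their bases would give. Conservative summits had been taken out of the members, and many small RNA genes could not enter for that reason.

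The tRNA genes beside members numbered 43 of 612, and 28 of them contained the summit. Their median summit lay 18 bp into the gene. All 43 could be matched by gene ID to RefSeq, which gives their amino acid. Counted by gene, proline had 10 of 42, leucine 5 of 39, glycine 4 of 55 and lysine 4 of 46. The 10 proline genes shared 5 members, each beside 2 neighbouring genes, and the 5 leucine genes had 5 members of their own. One of the strongest was at C48C5.t1, a proline tRNA gene (rank 1517, combined signal 105), which shares that member with C48C5.t3. The only annotated selenocysteine tRNA gene, K11H12.t1, had a member 17 bp into the gene at rank 1757 with a combined signal of 99.1. Repeated sequence bears on these genes: without members whose central 31 bp recur, the share near tRNA or snoRNA genes was 1.08% (0.766 to 1.52%), against 1.61% with them.

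The 17 snoRNA genes with members contained the summit in 6 cases, and the median summit lay 89 bp downstream of the 5′ end. The strongest were at W03B1.17 (signal 104), K07C10.2 (100.8), T08B6.64 (100.7) and K02C4.7 (99.6). The snRNA genes, components or relatives of the spliceosome, with the strongest members were F08H9.10 (signal 101.3), F07C6.5 (98.2), sls-2.2 (96.3), an SL2 spliced leader gene, and C47F8.9 (92.9). The microRNA genes with the strongest members were mir-8199 (96.7), mir-8211 (88.2), mir-1829a (85.4) and mir-8196a (84.8).

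Protein-coding genes with a member in the promoter window numbered 1091 of 19973 (5.46%), and genes with a member anywhere in their span numbered 1561 (7.82%). In the conservative list the counts were 816 genes (4.09%) by promoter and 545 (2.73%) by span. A conservative promoter summit was also present for 68 of the 1091 genes, which is 6.23% of the members' genes and 8.33% of the conservative genes. Of the 990 promoter members, 165 (16.7%) lay in the windows of 2 or more genes. An example is the member at rank 1529 between the ribosomal protein genes rps-14 and rpl-36, with 33.8 in replicate 1 and 64.3 in replicate 2.

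The share with a promoter member varied among 28 lists of genes from 0% to 26.9%, around the 5.46% of all coding genes. In ranks 5001 to 8500, the nearer weaker range, the share of all coding genes was 4.98%. Of 26 nuclear pore genes, which encode the channel between nucleus and cytoplasm, 7 had a promoter member (26.9%, 13.7 to 46.1%). The nearer weaker range gave 0 of the 26. The strongest 4 members were at npp-13 (signal 101.2), npp-19 (100.3), npp-16 (97.8) and npp-9 (87.5). Of 81 genes of cytoplasmic ribosomal proteins, 14 (17.3%, 10.6 to 26.9%) had a promoter member and 19 had a conservative summit. The nearer weaker range gave 5 of the 81 (6.17%). Besides rps-14 and rpl-36, the strongest members were at rps-22 (94.6) and rpl-7 (85.1). At rpl-7 the signal was 21.9 in replicate 1 and 65.8 in replicate 2.

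Wnt pathway genes had promoter members in 5 of 28 cases (17.9%, 7.88 to 35.6%), and 1 of the 28 had a conservative summit. The nearer weaker range of ranks gave 4 of the 28 (14.3%), inside the members' interval, and the farther one 1 (3.57%). The members' share was thus not set apart from that of the next ranks. Counted by span, Wnt pathway genes with a member numbered 9 (32.1%), beside 7.82% of all coding genes. The signals that follow are those of promoter members only, and a gene can hold a stronger member elsewhere in its span. The 5 genes with a promoter member included the ligand gene lin-44 (signal 82.0) and the Ror receptor gene cam-1 (77.0). The beta-catenin gene wrm-1 had a signal of 88.8, with 31.3 in replicate 1 and 54.03 in replicate 2. At pop-1, the TCF factor of the pathway that acts in the earliest cell fate decisions, the signal was 88.7. There the order of the replicates was turned round, with 61.9 in replicate 1 and 25.3 in replicate 2.

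Muscle structural genes had promoter members in 8 of 48 cases (16.7%, 8.70 to 29.6%), against 2 genes with conservative summits. The nearer and the farther weaker range of ranks each gave 5 of the 48 (10.4%), inside the members' interval. The strongest member was at unc-112, the kindlin of muscle attachments. There the replicates were far apart with 4.91 in replicate 1 and 97.5 in replicate 2. At pat-3, the beta integrin gene, they were 38.2 and 59.5 in the same order. The other named muscle members were at the cofilin gene unc-60 (78.3 in replicate 1, 38.1 in replicate 2) and the obscurin gene unc-89 (13.1 in replicate 1, 69.0 in replicate 2). Histone genes, which encode the proteins that package DNA, had 10 of 83 (12.05%, 6.68 to 20.8%) with a member and 29 with a conservative summit. These counts overlap, since 5 histone genes had both, and the 10 genes had 9 distinct members. Over all coding genes, 6.23% of those with a promoter member also had a conservative summit. The nearer weaker range gave 4 of the 83 (4.82%). The named members were at his-63 (95.6), his-47 (92.9), cpar-1, a gene for a centromeric H3 variant (90.002), and his-8 (84.4).

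Other housekeeping lists had shares from 6.25% to 12.8%, with wide intervals. Respiratory chain and ATP synthase genes had 6 of 47 (12.8%, 5.98 to 25.2%). Proteasome genes and translation factor genes each had 4 of 33 (12.1%, 4.82 to 27.3%), and mitochondrial ribosomal protein genes 7 of 66 (10.6%, 5.23 to 20.3%). Splicing factor genes had 5 of 67 (7.46%, 3.23 to 16.3%) and aminoacyl-tRNA synthetase genes 2 of 32 (6.25%, 1.73 to 20.1%). All of these intervals but that of the respiratory chain list included the 5.46% of all coding genes. In the nearer weaker range of ranks the respiratory chain list also gave 6 of 47. Translation factor genes gave 5 of 33 there and splicing factor genes 6 of 67, more than in the members. Fewer were found there for proteasome genes (2 of 33), mitochondrial ribosomal protein genes (4 of 66) and aminoacyl-tRNA synthetase genes (1 of 32). The proteasome lid gene rpn-11 had a signal of 101.3, the succinate dehydrogenase gene mev-1 93.3, the initiation factor gene eif-3.G 87.6 and mrps-16 105. Cell cycle genes gave 8 of 87 (9.20%) by promoter and 16 (18.4%) by span. By promoter the nearer weaker range gave more, 13 of 87 (14.9%). Among the cell cycle genes with a promoter member, the replication helicase gene mcm-4 had 33.6 in replicate 1 and 51.5 in replicate 2. Heat shock and chaperone genes gave 5 of 59 (8.47%), and 4 of 59 in the nearer weaker range. The genes hsp-16.2 and hsp-16.41 shared 1 member between them (signal 85.4).

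**Figure D4:**
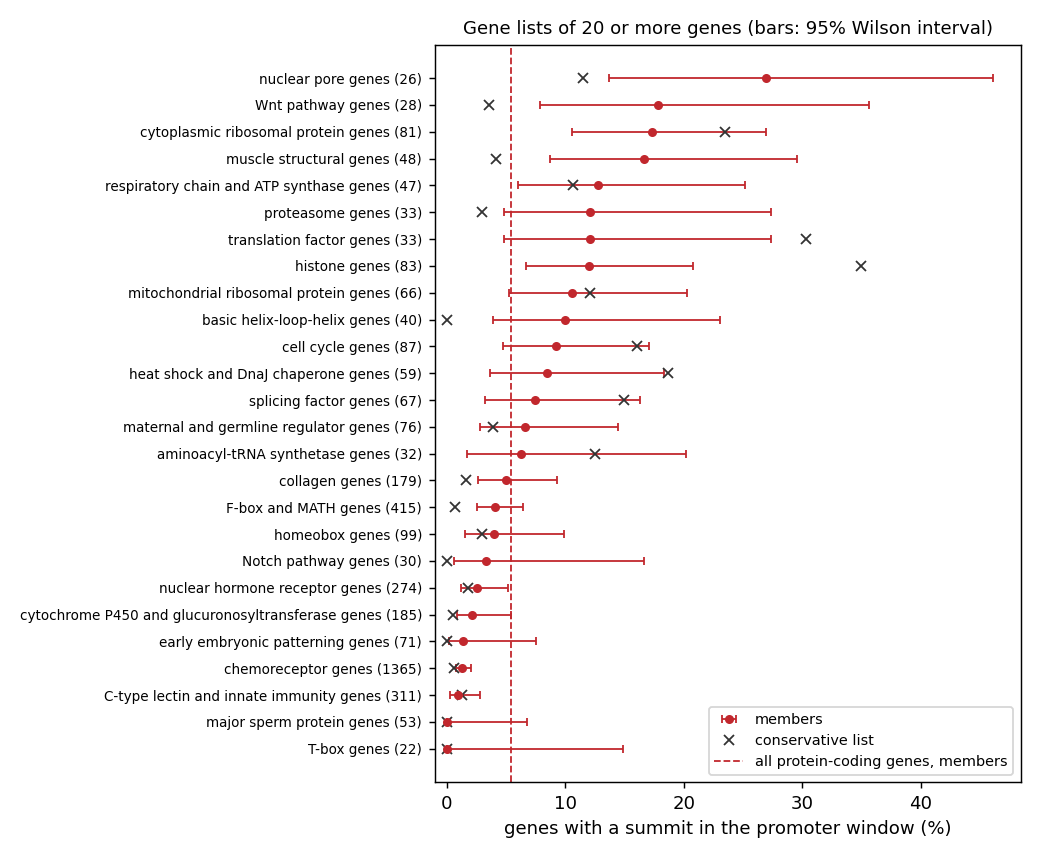
Share of genes with a summit in the promoter window (x axis, percent) for each list of 20 or more genes (y axis, number of genes in brackets), with 95% Wilson intervals for the members and crosses for the conservative list. The dashed line is the members' share over all protein-coding genes, 5.46%. Nuclear pore genes reach 26.9%, and chemoreceptor genes lie at 1.32%.

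For most lists of embryonic regulators the share was higher by span than by promoter, as over all coding genes (7.82% by span, 5.46% by promoter). For forkhead genes the 2 shares were equal. Homeobox genes had 4 of 99 (4.04%) by promoter and 15 (15.2%) by span, and Notch pathway genes 1 of 30 (3.33%) and 6 (20%). Early patterning genes had 1 of 71 (1.41%, 0.249 to 7.56%) by promoter and 8 (11.3%) by span. The promoter member of that list was at elt-7, a GATA factor gene of the endoderm, with 52.8 in replicate 2 and no summit within 200 bp in replicate 1. Basic helix-loop-helix genes had 4 of 40 (10%) by promoter and 7 (17.5%) by span, the promoter members among them at the neurogenin gene ngn-1 (59.9 in replicate 1, 19.4 in replicate 2) and lin-22 (41.1 and 42.1 in the same order). T-box genes had 0 of 22 by promoter (0 to 14.9%) and 3 (13.6%) by span. Forkhead genes had 1 of 15 by promoter and 1 by span. The forkhead gene with the promoter member was pha-4, the FoxA gene of the pharynx, at rank 3774 with 32.2 in replicate 1 and 34.995 in replicate 2. In the nearer weaker range the promoter counts were higher for homeobox genes (7 of 99) and Notch pathway genes (3 of 30). Early patterning genes also had more there, 3 of 71. Basic helix-loop-helix genes had fewer (2 of 40), and T-box (0 of 22) and forkhead genes (1 of 15) the same number. For pes-1 itself there was no promoter member, and the nearest member was 77690 bp away.

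Large families with late or tissue-specific use had few promoter members, but not all had few by span. Chemoreceptor genes had promoter members in 18 of 1365 cases (1.32%) and span members in 27 (1.98%). C-type lectin and innate immunity genes had 3 of 311 (0.965%) by promoter, nuclear hormone receptor genes 7 of 274 (2.55%), and cytochrome P450 and glucuronosyltransferase genes 4 of 185 (2.16%). In the same order they had 13 (4.18%), 21 (7.66%) and 10 (5.41%) by span, beside 7.82% of all coding genes. By promoter the nearer weaker range gave more in each, 9 of 311, 14 of 274 and 5 of 185. For nuclear hormone receptor genes that was 5.11%, near the 4.98% of all coding genes in that range. Chemoreceptor genes had fewer there, 14 of 1365. Major sperm protein genes had 0 of 53 (0 to 6.76%) by promoter and by span. The strongest single members in these families were at nhr-41 (105), srbc-65 (103), spp-13 (101.5) and ugt-50 (98.8). Collagen genes, at 9 of 179 (5.03%), and F-box and MATH genes, at 17 of 415 (4.10%), lay near the 5.46% of all coding genes by promoter. By span, collagen genes had 21 (11.7%) and F-box and MATH genes 15 (3.61%).

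Genes with a member in their span were longer than coding genes as a whole, as were those of the other lists. The median length was 5477 bp for genes with a span member, 5531 bp for conservative peaks and 5466 bp for ranks 5001 to 8500, against 2027 bp for all protein-coding genes. For genes with a promoter member it was 2965 bp, and for conservative peaks 2639.5 bp. Of the 1561 genes, 1232 held 1 member, 219 held 2, 68 held 3 and 42 held 4 or more. The genes with most were chosen after their values were seen. They were hmr-1, the classical cadherin gene, with 12 members in 58913 bp, and afd-1, the afadin gene, with 8 in 49607 bp. The zinc finger homeobox gene zfh-2 had 7 in 31398 bp, the ArfGAP gene cnt-2 had 7 in 22506 bp and the phosphatase gene cdc-25.2 had 7 in 18457 bp. Over the nuclear genome there were 32.9 members per Mb. The list also held vab-10, a spectraplakin gene, par-1, a polarity kinase gene, and daf-5, a Sno/Ski gene, with 6 each.

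Summits of members were richer in G and C than their surroundings. The window of 50 bp to either side had a G+C content of 44.3% ± 10.02 (SD over 3298 members), and windows of the same size centred 500 bp to either side averaged 36.97%. The paired difference was 7.29 percentage points (95% interval over members 6.89 to 7.70), and the summit was higher at 2366 members (71.7%). The difference was 12.5 in conservative peaks, 4.44 in ranks 5001 to 8500 and 0.723 in ranks 30001 to 33500, and so it followed the order of signal. It was 8.39 in the 824 strongest members and 5.90 in the 824 weakest. Members drawn by the same ranks from 1 replicate's own list gave 8.57 without replicate 1 and 4.41 without replicate 2.

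**Figure D5:**
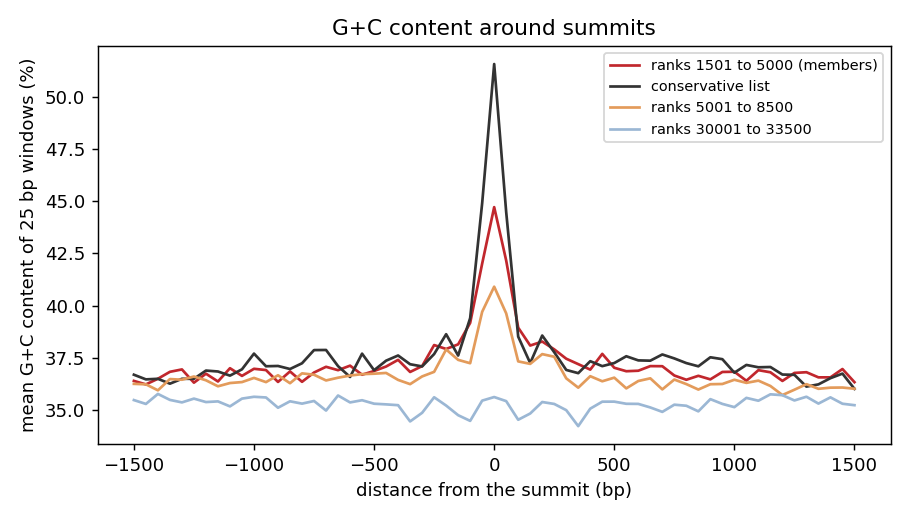
Mean G+C content of 25 bp windows (y axis, percent) by distance from the summit (x axis, bp) for the members, the conservative list and both weaker ranges of ranks. The members' peak stands between that of the conservative list and that of ranks 5001 to 8500, and falls most of the way to the level of the surroundings within 200 bp.

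A G+C content of 50 to 60% was found at 761 members (23.1%), 43.6% of conservative peaks and 4.73% of genome tiles. At the other end, under 30%, were 297 members (9.01%), 2.07% of conservative peaks and 28.9% of tiles. The difference from the flanks was 10.5 points in exon members, 8.99 in intergenic members, 7.91 in promoter members and 5.08 in intron members. In conservative peaks the intron class gave 13.0 points. Outer and central parts of chromosomes gave 7.19 and 7.91 points in members. Members whose central 31 bp recur in the genome gave 8.69 points, and single-copy members 7.14. The dinucleotide CpG occurred at 1.09 times the rate given by its bases in the summit windows, against 1.07 and 1.06 in the flanks, while GpC stood at 1.27 against 1.09 and 1.08.

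The forkhead core was not more frequent at members than beside them. GTAAACA, searched on both strands, was in the window of 24 members (0.728%, 0.490 to 1.08%), and in 25 and 27 windows of the left and right flanks (0.788% on average). It was in 18 conservative windows (1.24%) and in 1.12% of genome tiles. The shorter TAAACA, which the core contains, was in 132 members (4.002%) and 5.91% of flanks. Since the motif is rich in A and T and the windows are not, tiles of equal G+C content are the nearer comparison. At 50 to 60% G+C, 8 of 761 members (1.05%, 0.534 to 2.06%) and 0.486% of tiles held GTAAACA. At 40 to 50%, 9 of 1207 members (0.746%, 0.393 to 1.41%) and 0.822% of tiles did. At 30 to 40%, 5 of 837 members (0.597%, 0.255 to 1.39%) and 1.27% of tiles did. For TAAACA the shares at 50 to 60% were 3.02% of members (2.02 to 4.49%) and 1.75% of tiles. They were 3.65% and 3.64% at 40 to 50%, and 5.26% and 7.39% at 30 to 40%. By class the core was in 9 promoter, 1 exon, 7 intron and 7 intergenic members. The motif says nothing of whether PES-1 was bound through it.

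Of the 3 highest-ranked members with the core, off UTRs, 2 are printed to show its setting, with the core in capitals on the strand where it falls. The first is chrX:3900836-3900936, upstream of sup-12, a gene for an RNA-binding splicing regulator, at rank 1884 with 49.5 in replicate 1 and 43.5 in replicate 2. The other is chrX:20680-20780, near the chromosome end, at rank 1957 with 60.3 and 43.8 in the same order. One more window, chrV:19757827-19757927 in an intron of W04E12.9 at rank 1531, shows the unit TTAGGC of the worm telomere repeat, here as its reverse complement in capitals. It was chosen after the words below had been seen.
forkhead core, near sup-12: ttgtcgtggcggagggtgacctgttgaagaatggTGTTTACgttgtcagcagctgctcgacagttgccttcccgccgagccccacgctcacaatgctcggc
forkhead core, near Y73B3A.1: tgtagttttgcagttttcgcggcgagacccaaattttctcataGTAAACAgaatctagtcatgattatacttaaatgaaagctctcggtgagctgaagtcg
telomere repeat unit, W04E12.9: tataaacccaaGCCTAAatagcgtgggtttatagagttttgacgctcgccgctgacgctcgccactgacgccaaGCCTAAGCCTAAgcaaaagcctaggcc

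Other sites showed both directions. The GATA factor site TGATAA was in 3.40% of members (2.83 to 4.07%), 8.57% of flanks and 9.35% of tiles. At 50 to 60% G+C it was in 1.18% of members and 2.53% of tiles. The arbitrary word GTGTTG was also lower in members there, at 4.60% against 6.02% of tiles, and at 30 to 40% G+C, at 1.91% against 4.10%. The GA repeat GAGAGA was in 268 members (8.13%, 7.24 to 9.11%) and 6.31% of flanks, and in 12.5% of conservative windows. At 40 to 50% G+C it was level, in 7.95% of members (6.56 to 9.62%) and 7.81% of tiles. At 30 to 40% it was in 6.69% and 5.15%, and at 50 to 60% in 12.5% and 9.33%. The run CCCCCC was in 168 members (5.09%, 4.39 to 5.90%) and 1.52% of flanks. GGTTCGA, the core of the B box inside tRNA promoters, was in 72 members (2.18%, 1.74 to 2.74%) and 0.894% of flanks, more members than the 36 near annotated tRNA genes, and in 12.5% of conservative windows. The A run AAAAAAA was in 702 members (21.3%) and 24.0% of flanks, but in 9.44% of conservative windows. Against tiles of equal G+C the order was the other way: it was in 34.4% of members and 18.6% of tiles at 30 to 40% G+C, in 15.5% and 6.70% at 40 to 50%, and in 7.10% and 2.21% at 50 to 60%.

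Of 2069 words of 6 bases, counted with their reverse complements, 451 had a share at summits at least 1.5 times that of flanks, and for 351 flanks exceeded summits by 1.5 times or more. Words were not compared at equal G+C content, which was 44.3% in the summit windows and 36.97% in the flanks. The part of this difference in the order of words was not tested. The leading word was CGCGCC, in 247 members (7.49%) and 1.62% of flanks. The next were CGCGCG (3.27% and 0.713%) and CCGCGC (6.34% and 1.41%), which overlap it. Members with CGCGCC lay in introns in 41.7% of cases and in promoter windows in 32.4%, compared with 38.2% and 29.8% of the other members. Among the leaders, CCTAGG (2.67% and 0.6671%) and CCTAAG (4.91% and 1.304%) also hold A and T. The lowest was AATGAT (2.94% and 8.73%).

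The word CCTAAG is part of the reverse complement of the telomere repeat TTAGGC. At least 2 adjacent copies, on either strand, were in 84 members (2.55%, 2.06 to 3.14%), in 0.303% of flanks and in 0.200% of genome tiles. In the conservative list 9 windows (0.620%, 0.326 to 1.17%) held them, in ranks 5001 to 8500 59 (1.69%, 1.31 to 2.17%) and in ranks 30001 to 33500 21 (0.600%, 0.393 to 0.916%). Among these 5 sets the members had the highest share, though their interval overlapped that of ranks 5001 to 8500. The pair was counted after CCTAAG had been seen among the leading words at the members' own summits. This order of the sets is therefore a description only. All 84 lay in the outer parts of chromosomes, as did 99.1% of the 1981 genome tiles with the pair, and none was within 10000 bp of a chromosome end. They were 44 intron, 26 intergenic, 13 promoter and 1 exon members. Chromosome V had 22 of them and X had 3. Both replicates' lists held 80 of the 84, and the central 31 bp recurred in the genome for 10.

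The members with the highest ranks show the mixture. Of the first 20, 15 had a protein-coding 5′ end within 2000 bp, as did 62.3% of all members and 65.1% of genome tiles. At hbl-1, the hunchback-like zinc finger gene of developmental timing, the summit was 1879 bp upstream, with 38.8 in replicate 1 and 57.0 in replicate 2. At hsp-90 it was 951 bp downstream in an intron, with 54.6 and 43.2 in the same order. At tub-2 it was 42 bp upstream, with 41.8 in replicate 1 and 19.1 in replicate 2. At T26A8.4 it was 54 bp upstream, with 34.8 in replicate 1 and 58.5 in replicate 2. The promoter member at brc-1, 802 bp upstream of its shortest transcript's start, had 24.7 in replicate 1 and 76.7 in replicate 2 and a global IDR of 0.361. The exon member at Y75B8A.10 had closer signals, 41.9 in replicate 1 and 54.9 in replicate 2, and a global IDR of 0.0115. Other genes were best-11, dnj-30, T13B5.9, R07H5.9, R06A10.5, rps-14, cfap-36 and W04E12.9.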

How the data were processed

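ChIP-seq was done on 2 replicates, and reads were placed on ce11, per the deposited file lists. No aligner, caller or version is given in the sources used here. The score in the deposited lists restates the IDR in whole numbers. The deposited signal is a value per peak from the authors' caller, with scaling between replicates unstated. Nuclear peaks of the ranked list numbered 74874, and ranks 1501 to 5000 were used. The deposited lists also hold the -log10 of the q-value and of the global IDR, and the summit as another number, an offset from the peak start. The 8 unnamed columns of the ranked lists were not used.

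Mitochondrial peaks were set aside. Ties in signal were ordered by chromosome and summit. Classes were assigned in the order promoter, exon, intron, intergenic, from Ensembl release 115. A replicate's signal was that of its nearest summit within 200 bp. Motifs were searched in windows of 101 bp, and words were kept where at least 60 windows held them. Computations used Python 3.11.15, NumPy 2.4.6, pandas 2.3.3 and SciPy 1.17.1 and were tested on simulated data. Named genes were the nearest to the 20 highest-ranked members, up to 4 per gene list or small RNA class by signal, and pes-1. Members and lists were chosen with earlier results of these data known. Some members covered by these rules are not reported here.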

Additional observations from a re-analysis of the deposited data

How the results depend on the processing

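Merging summits within 200 bp, and removing members up to 500 bp from conservative summits, moved none of the 10 results beyond its interval. Removing members near the optimal list as well gave a coding-gene promoter share of 4.92%, and the other series-level ranked list gave 94.2% found in both replicates. With each replicate's own list in place of the combined one, exon shares were 11.1% to 12.4%, intron shares 33.5% to 36.1%, G+C differences 4.41 to 8.57 points, coding-gene promoter shares 4.94% to 5.15% and autosome centre shares 15.7% to 17.9%. Leaving out members with a recurring central 31 bp, an alternative added after the data were seen, gave 1.08% near tRNA or snoRNA genes and 5.13% of coding genes. Promoter windows of 500 bp upstream to 100 bp downstream gave 19.4% promoter, 10.2% exon, 42.8% intron, 27.6% intergenic and 3.54% of coding genes, and windows of 2000 to 500 bp gave 47.0%, 5.85%, 29.99%, 17.2% and 8.70%. The narrow promoter windows held 14.2% of nuclear bases and the wide ones 46.6%. With the wide windows the members' promoter share was thus close to that of bases. Matching within 100 bp gave 85.2% found in both replicates and within 400 bp 97.4%. Windows of 25 bp to either side gave a G+C difference of 8.24 points and GTAAACA in 0.394% of members, and of 100 bp 5.24 points and 1.85%. Apart from the windows' own construction, the cause was not tested. No paired analysis was possible because there is 1 group. Read depth was not analysed here.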
